A study of Mus musculus with 15 samples.

Results

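The Janus kinases and signal transducers examined here are 9 genes, taken by exact gene symbol from the 21110 genes of the expression files. They are the 4 JAK kinase genes Jak1, Jak2, Jak3 and Tyk2 and the 5 STAT genes Stat2, Stat3, Stat5a, Stat5b and Stat6. All 9 symbols were found and all 9 passed the filter on low values in every comparison. The rule that selects them is the symbol alone and holds no measured value.

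Ear RNA was compared between wild-type (WT) mice and Socs3 conditional knockout (cKO) mice, in which Socs3 is deleted under keratin 5, a keratin of basal keratinocytes. All mice were on the C57BL/6 background. The libraries analysed were 4 WT and 4 Socs3 cKO at 2 weeks after birth, and 3 WT and 4 Socs3 cKO at 10 weeks. The comparison asks how loss of this feedback inhibitor in keratinocytes changes gene expression in young and in adult skin. The labels name keratinocytes as the source, whereas the RNA came from ear specimens, and cells that do not use keratin 5 keep Socs3. In such tissue RNA, fewer cells of a type and less RNA per cell cannot be told apart. The labels do not tie the libraries to litters or days, so p-values measure the spread between these samples.

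Cytokine receptors of this class have no kinase of their own and carry JAK kinases on their inner side. A bound cytokine brings the receptor chains together, the JAKs phosphorylate each other and then the receptor, and a STAT that docks there is phosphorylated, forms a dimer and moves to the nucleus to switch genes on. SOCS3 binds the IL-6 receptor chain gp130 together with JAK1, JAK2 or TYK2 and blocks this step, and Socs3 is itself a STAT3 target gene.

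JAKs are activated at a pair of adjacent tyrosines in the kinase domain. The coding sequence around these codons is shown for the 4 JAK genes because the genes separate below in the same way as their base composition. The capitals mark the tyrosine codons, and each window has 60 bases of coding exon from the GENCODE transcripts of mm9.
Jak1: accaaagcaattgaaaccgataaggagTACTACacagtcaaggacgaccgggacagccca
Jak2: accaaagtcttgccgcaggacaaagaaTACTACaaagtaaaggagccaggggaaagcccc
Jak3: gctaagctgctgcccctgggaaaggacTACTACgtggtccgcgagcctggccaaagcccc
Tyk2: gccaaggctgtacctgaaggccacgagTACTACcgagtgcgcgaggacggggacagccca

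The Jak1 window lies at chr4:100829006-100829065 on the minus strand and the Jak2 window at chr19:29376494-29376553 on the plus strand. The Jak3 window lies at chr8:74209957-74210016 on the plus strand and the Tyk2 window at chr9:20912317-20912376 on the minus strand. Guanine and cytosine make up 50.0% of the windows of Jak1 and Jak2 and 65.0% of those of Jak3 and Tyk2. Over the longest coding transcript the G+C content was 47.6% for Jak1, 44.3% for Jak2, 60.7% for Jak3 and 57.0% for Tyk2.

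STATs are activated at a tyrosine near the C terminus. The codon is in capitals in the windows of Stat3, Stat5a and Stat5b, which are shown because Stat3 acts below the receptors that SOCS3 blocks and because reads of the Stat5 genes can be hard to assign.
Stat3: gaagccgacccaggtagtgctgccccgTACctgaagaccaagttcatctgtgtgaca
Stat5a: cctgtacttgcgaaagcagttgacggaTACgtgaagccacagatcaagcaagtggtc
Stat5b: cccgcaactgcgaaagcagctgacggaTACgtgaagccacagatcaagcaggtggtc

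These windows are joined across an intron and have 57 bases each. The Stat3 window falls within chr11:100751202-100754403 on the minus strand, the Stat5a window within chr11:100742490-100743098 on the plus strand and the Stat5b window within chr11:100645572-100648532 on the minus strand. The Stat5a and Stat5b windows were identical at 51 of 57 positions. Over 2346 aligned coding bases the pair was 90.7% identical, with a shared run of 324 bases, and 50-base words found in both made up 14.7% of those of Stat5a and 11.1% of those of Stat5b. A read of 50 bases from such a stretch fits either gene, so their separate FPKM values are uncertain to that extent. The 3 genes lie side by side on chromosome 11, where Stat5a and Stat3 share 72 exon bases on opposite strands, and the library kit does not mark strand. Jak3 shared 404 bases, 7.54% of its exon bases, with Insl3 on the same strand, and 288 bases (5.37%) with Gm9933 on the opposite strand. Other exon overlaps, on opposite strands, were 40 bases of Stat6 with Nab2 and 4 bases of Jak1 with Raver2.

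The unit is FPKM, fragment counts normalized for gene length and mapped reads, so levels can be compared between genes. In WT mice at 2 weeks the order of mean levels was Stat3, Stat6, Jak1, Stat5b, Tyk2, Jak2, Stat5a, Stat2 and Jak3, from 48.1 FPKM ± 1.02 (SD, n = 4) for Stat3 to 3.8 FPKM ± 0.209 (SD, n = 4) for Jak3. Tyk2 and Jak2 overlapped in range, as did Stat5a and Stat2, and the other neighbours in this order did not. In WT mice at 10 weeks Jak1 at 22.4 FPKM ± 6.61 (SD, n = 3) and Stat3 at 22.2 FPKM ± 3.51 (SD, n = 3) overlapped at the top, and Jak3 was lowest in all 4 groups.

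**Figure D1:**
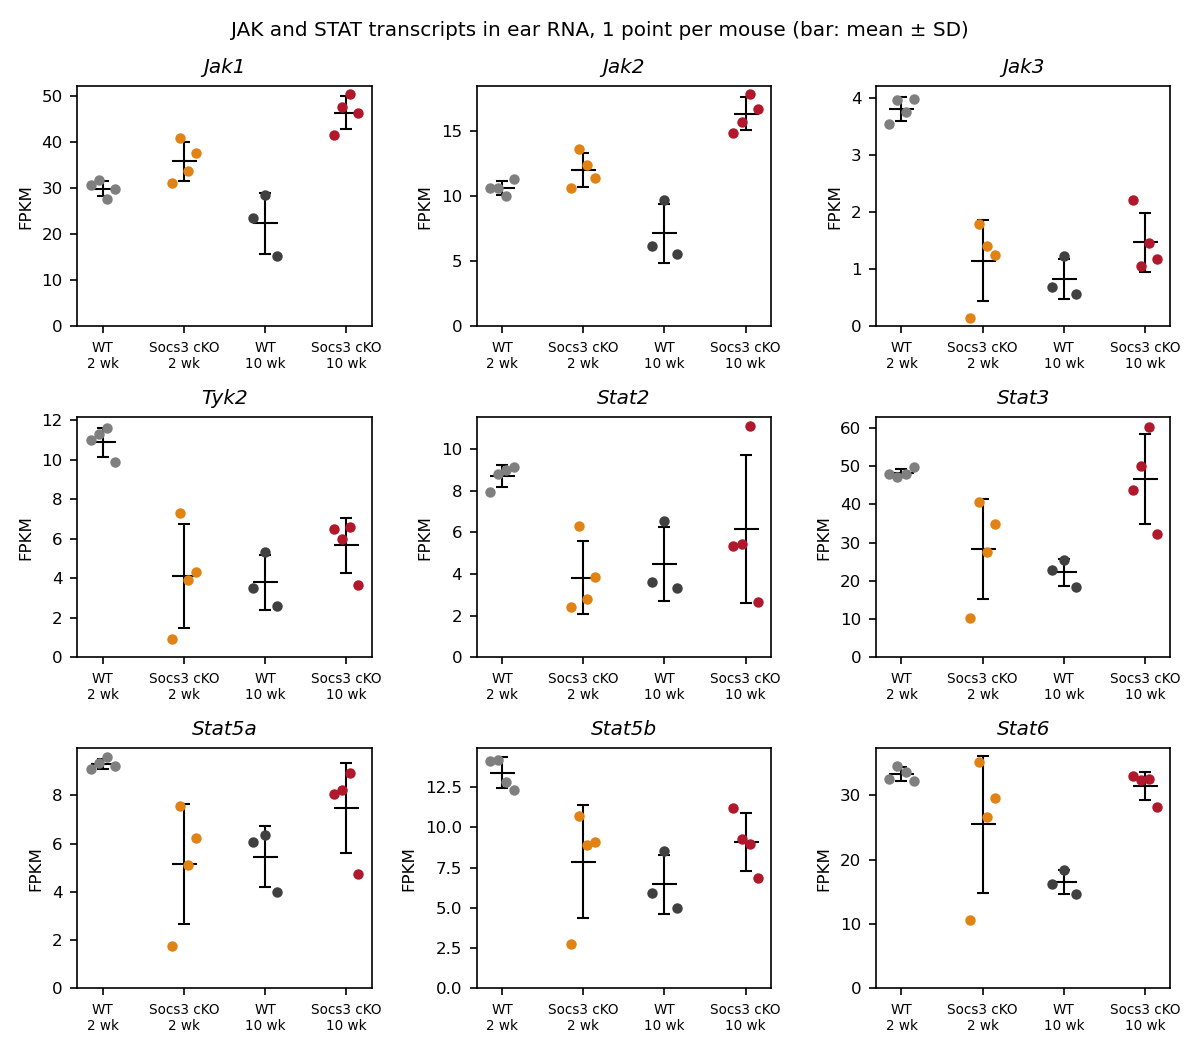
FPKM (vertical axes, each starting at 0) of the 9 JAK and STAT genes in the 4 groups, with 1 point per mouse and bars for the mean ± SD. Jak1 and Jak2 are highest in Socs3 cKO at 10 weeks, whereas the other 7 genes have a low point in Socs3 cKO replicate 1 at 2 weeks, which for Jak3 is 0.152 FPKM.

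The libraries had about 11000000 to 16000000 mapped reads each, estimated from the FPKM value that 1 read gives in genes of known length, and a 1-read step was seen in all 15 libraries. For Jak3, the lowest member, this comes to about 11 to 290 reads per library. Socs3 cKO replicate 1 at 2 weeks stood apart, with a correlation of -0.64 across genes between its deviation from the gene means and G+C content. This correlation also differed between groups, at 0.324 to 0.38 in WT and -0.638 to -0.159 in Socs3 cKO at 2 weeks. At 10 weeks it was 0.068 to 0.26 in WT and -0.251 to -0.116 in Socs3 cKO. WT libraries at 10 weeks had 1414 to 3176 genes at 0, against 4044 to 4183 in WT at 2 weeks. Socs3 cKO libraries had 4134 to 4423 at 2 weeks and 4092 to 4233 at 10 weeks. Socs3 itself was at 1.25, 9.32, 12.6 and 3.51 FPKM in Socs3 cKO at 2 weeks against 9.71 to 10.3 in WT, and at 29.8 to 47.7 FPKM in Socs3 cKO at 10 weeks against 2.02 to 4.81 in WT. The level of the targeted gene in ear RNA thus overlapped between the genotypes at 2 weeks and was higher in Socs3 cKO at 10 weeks. It cannot check the deletion in keratinocytes, since other cells of the ear keep Socs3, and Socs3 cKO here means the libraries so labelled. Library numbers run in a separate range for each group, so library batch and condition cannot be told apart.

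At 2 weeks Jak3, Tyk2 and Stat2 were lower in Socs3 cKO and no member was higher, by limma on log2(FPKM + 0.1) with an adjusted p below 0.05. That is 3 of 9 members, where 26.1% of the 13524 genes tested were lower by the same rule. The median log2 fold change (FC) was -0.93 over the members and -0.21 over all genes tested, which median-of-ratios scaling moved to -0.0032. With that scaling Jak1 (log2(FC) 0.46, adjusted p = 0.0163) and Jak2 (log2(FC) 0.37, adjusted p = 0.0439) were also called, as higher. The calls over all genes then went from 2949 higher and 3530 lower to 3602 higher and 3238 lower.

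Among the kinases, Jak1 serves most class II and gp130 receptors and Jak2 the receptors of growth hormone, erythropoietin and IFN-gamma. Jak1 was at 30.6, 31.7, 27.7 and 29.7 FPKM in WT and at 31.1, 40.9, 33.8 and 37.6 FPKM in Socs3 cKO. The groups overlapped, and log2(FC) was 0.25 (SE 0.13, adjusted p = 0.127). Jak2 was at 10.0 to 11.3 FPKM in WT and 10.6 to 13.6 FPKM in Socs3 cKO, with a log2(FC) of 0.17 (SE 0.13, adjusted p = 0.308).

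Jak3 works with the common gamma chain of the interleukin-2 receptor family, mainly in lymphocytes. It was at 3.53, 3.95, 3.74 and 3.98 FPKM in WT and at 0.152, 1.79, 1.40 and 1.25 FPKM in Socs3 cKO. Every cKO mouse lay below every WT mouse, and log2(FC) was -1.98 (SE 0.58, adjusted p = 0.0243). Tyk2, the kinase of the type I interferon and IL-12 receptors, was at 11, 11.3, 11.6 and 9.87 FPKM in WT and at 0.933, 7.33, 3.91 and 4.33 FPKM in Socs3 cKO. Its groups did not overlap either, and log2(FC) was -1.69 (SE 0.53, adjusted p = 0.0298).

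Stat2, the interferon-specific STAT, was at 7.93, 8.79, 8.99 and 9.13 FPKM in WT and at 2.40, 6.29, 2.80 and 3.84 FPKM in Socs3 cKO. The groups did not overlap, and Stat2 was the only member that met the study's criteria for a differentially expressed gene (DEG, adjusted p below 0.01 and at least 2-fold), with a log2(FC) of -1.26 (SE 0.28, adjusted p = 0.0098). Of all genes tested 7.19% were lower by these criteria. Stat3, the STAT of gp130 receptors, was at 47.9, 47.2, 47.8 and 49.6 FPKM in WT and at 10.4, 40.5, 27.4 and 34.9 FPKM in Socs3 cKO. All 4 cKO mice were below the WT mice, but with a log2(FC) of -0.93 (SE 0.38) the adjusted p of 0.0718 missed the threshold.

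Stat5a and Stat5b, which act below growth hormone, prolactin and interleukin-2 receptors, had non-overlapping groups too. Stat5a was at 9.09 to 9.57 FPKM in WT and 1.75 to 7.56 FPKM in Socs3 cKO (log2(FC) -1.01, SE 0.40, adjusted p = 0.065). Stat5b was at 12.3 to 14.2 FPKM in WT and 2.73 to 10.7 FPKM in Socs3 cKO (log2(FC) -0.92, SE 0.39, adjusted p = 0.0799). Stat6, the STAT of IL-4 and IL-13, overlapped at 32.3 to 34.6 FPKM in WT and 10.6 to 35.2 FPKM in Socs3 cKO (log2(FC) -0.51, SE 0.34, adjusted p = 0.228).

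In all, 6 of 9 members had lower, non-overlapping groups at 2 weeks, against 33.2% of all genes tested. Leaving out Socs3 cKO replicate 1 raised the calls to 7, with Jak1 higher (log2(FC) 0.32, adjusted p = 0.0185) and Stat3, Stat5a and Stat5b lower at log2(FC) -0.51, -0.57 and -0.48. Leaving out Socs3 cKO replicate 2 gave 6 calls, and leaving out any of the 4 WT mice gave 1, which was Stat2. Calls over all genes tested moved too, from 6479 of 13524 to 8246 of 13451 without Socs3 cKO replicate 1. They were 8036 of 13426 without Socs3 cKO replicate 2 and 3885 to 4090 without a WT mouse.

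The members' log2(FC) at 2 weeks followed their G+C content, with Pearson's r = -0.90 over the 9 genes, which share their libraries, and r = -0.47 over 13037 genes. Once the trend of each library with gene length and G+C content was removed, Jak1 was higher (log2(FC) 0.57, adjusted p = 0.00322) and Stat2 lower (log2(FC) -0.64, adjusted p = 0.0111). These were the only members called, where 3448 of the 13037 genes tested were higher and 2910 lower. Jak3 was then at -0.38 (adjusted p = 0.0652), Tyk2 at -0.49 (adjusted p = 0.057) and Stat3 at -0.12 (adjusted p = 0.532), and the values of Stat5a and Stat6 turned positive at 0.16 and 0.31. Stat2 was called in all 20 settings tried and Jak3 in 12 of them, but the settings reuse the same libraries and are not independent. The stricter DEG criteria were still met by Stat2 with a pseudocount of 1 (adjusted p = 0.00671). They were missed with a pseudocount of 0.01 (adjusted p = 0.0104), with any WT mouse left out (adjusted p = 0.0278 to 0.0323) and with the trend removed.

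**Figure D2:**
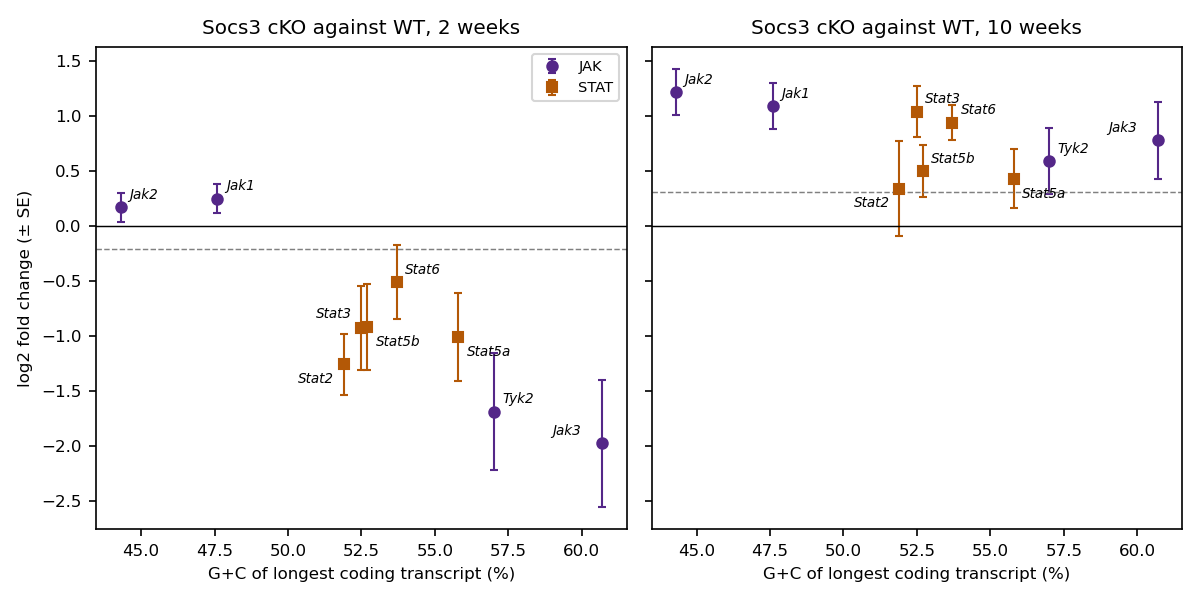
G+C content of the longest coding transcript (horizontal axis, percent) against log2 fold change of Socs3 cKO over WT with its SE (vertical axis) at 2 weeks (left) and 10 weeks (right), with JAK genes as circles, STAT genes as squares and the median of all genes tested as a dashed line. At 2 weeks values run from 0.17 for Jak2 at 44.3% G+C and 0.25 for Jak1 to -1.98 for Jak3 at 60.7% G+C, and at 10 weeks all 9 values are above 0.

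At 10 weeks Jak1, Jak2, Stat3 and Stat6 were higher in Socs3 cKO and no member was lower. These 4 of 9 members compare with 28.7% of the 13105 genes tested, and the same 4 had higher, non-overlapping groups, against 31.2% of all genes. The median log2(FC) was 0.78 over the members and 0.31 over all genes tested, and the latter was 0.05 when libraries were scaled by the median of ratios. That scaling also moved the calls over all genes from 3757 higher and 1174 lower to 2639 higher and 2075 lower, quantile normalization to 2489 and 2643, and removal of the length and G+C trend to 2017 and 2478.

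Jak1 was at 23.6, 28.4 and 15.3 FPKM in WT and at 41.6, 47.6, 50.4 and 46.2 FPKM in Socs3 cKO. Every cKO mouse exceeded every WT mouse, and log2(FC) was 1.09 (SE 0.21, adjusted p = 0.00462). Jak2 was at 6.17, 9.70 and 5.54 FPKM in WT and at 14.8, 15.7, 17.8 and 16.7 FPKM in Socs3 cKO. It had the largest log2(FC) of the members, at 1.22 (SE 0.21, adjusted p = 0.00293).

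Stat3 was at 22.9, 25.4 and 18.4 FPKM in WT and at 43.7, 50.1, 60.3 and 32.2 FPKM in Socs3 cKO. Here the cKO mice were above the WT mice, with a log2(FC) of 1.04 (SE 0.23, adjusted p = 0.00717). Stat6 was at 16.3, 18.4 and 14.7 FPKM in WT and at 33.0, 32.4, 32.6 and 28.2 FPKM in Socs3 cKO, and its log2(FC) of 0.94 (SE 0.16, adjusted p = 0.0023) was just under 2-fold. Jak1, Jak2 and Stat3 met the DEG criteria, where 12.5% of all genes tested were higher by them.

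The remaining 5 members overlapped between the groups. Jak3 was at 0.558 to 1.23 FPKM in WT and 1.06 to 2.20 FPKM in Socs3 cKO (log2(FC) 0.78, adjusted p = 0.108), and Tyk2 at 2.58 to 5.32 and 3.65 to 6.58 FPKM (log2(FC) 0.59, adjusted p = 0.142). Stat5a and Stat5b had log2(FC) values of 0.43 (adjusted p = 0.223) and 0.50 (adjusted p = 0.128). Stat2 spread from 2.67 to 11.1 FPKM within Socs3 cKO alone, and its log2(FC) was 0.34 (SE 0.43, adjusted p = 0.555).

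The 4 calls held under quantile normalization and under median-of-ratios scaling. With the length and G+C trend removed 2 of them were left, Jak2 at 0.55 (adjusted p = 0.016) and Stat6 at 0.50 (adjusted p = 0.0104), while Jak1 was at 0.35 (adjusted p = 0.104) and Stat3 at 0.34 (adjusted p = 0.105). Leaving out WT replicate 2 gave 7 calls, with Jak3, Tyk2 and Stat5b added. Calls over all genes tested then went from 4931 of 13105 to 5771 of 12904.

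**Figure D3:**
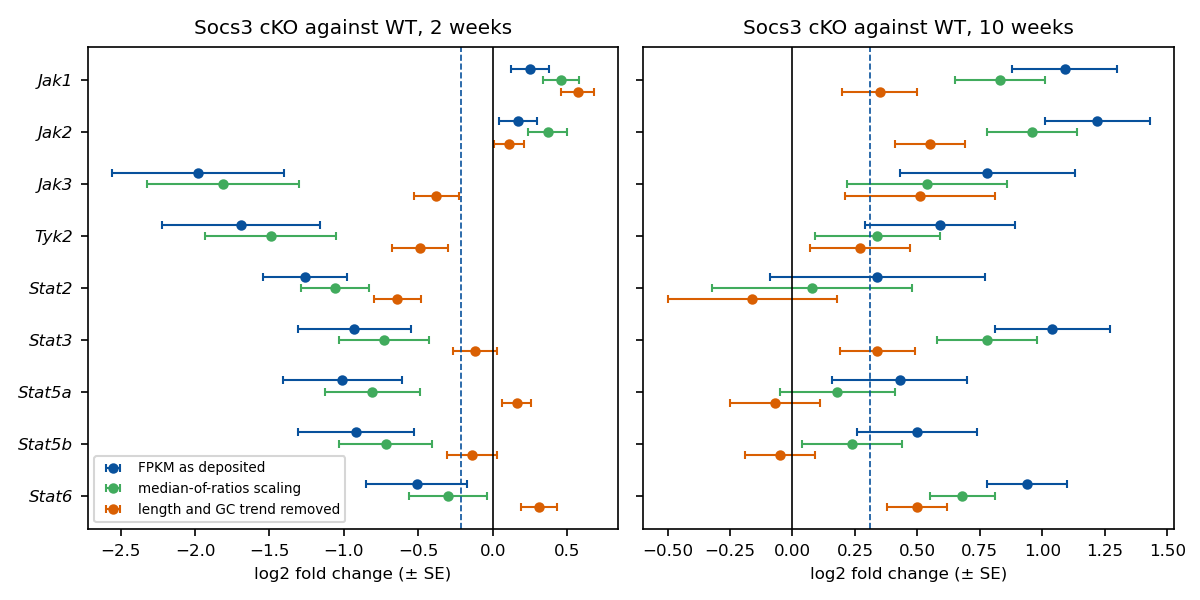
Log2 fold change of Socs3 cKO over WT with its SE (horizontal axes) for the 9 genes at 2 weeks (left) and 10 weeks (right), from the FPKM values as deposited, after median-of-ratios scaling and after removal of the length and G+C trend, each panel with its own scale and with the deposited-value median of all genes tested as a dashed line. At 2 weeks Jak3 moves from -1.98 to -0.38 on removal of the trend and Stat2 from -1.26 to -0.64, and at 10 weeks Jak1 moves from 1.09 to 0.35.

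The genotype difference changed with age for every member when the interaction was fitted on all 4 groups. All 9 of 9 had a positive interaction with an adjusted p below 0.05, against 34.6% of the 13937 genes tested, and the median was 1.45 over the members and 0.55 over all genes. Over all genes, 4816 positive and 1740 negative calls became 3300 and 2920 under median-of-ratios scaling, 3126 and 3541 under quantile normalization, and 2463 and 3263 with the length and G+C trend removed. The interaction on the log2 scale was 2.75 for Jak3 (SE 0.73, adjusted p = 0.00832), 2.28 for Tyk2 (SE 0.66, adjusted p = 0.013) and 1.97 for Stat3 (SE 0.48, adjusted p = 0.00565). It was smallest for Jak1, at 0.83 (SE 0.25, adjusted p = 0.0152). The count fell to 5 under median-of-ratios scaling, to 4 under quantile normalization and to 3 with the length and G+C trend removed, where Jak2, Jak3 and Tyk2 were left and the Jak1 value was -0.19 (adjusted p = 0.414).

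In WT mice 6 of 9 members fell from 2 to 10 weeks, where 37.6% of all genes tested fell, and 8 of 9 had lower, non-overlapping groups, where 49.5% of all genes did. Removal of the length and G+C trend moved the calls over all genes from 1831 higher and 5246 lower to 3704 and 2795. Jak3 fell the most, from 3.53 to 3.98 FPKM at 2 weeks to 0.558 to 1.23 FPKM at 10 weeks (log2(FC) -2.14, SE 0.54, adjusted p = 0.00494). Tyk2 fell by 1.56 on the log2 scale, Stat3 by 1.12, Stat5b by 1.07, Stat6 by 1.02 and Jak2 by 0.61, with adjusted p-values of 0.0113 to 0.0255. Jak1 had a log2(FC) of -0.46 (adjusted p = 0.0502), Stat2 of -1.0 (adjusted p = 0.0516) and Stat5a of -0.78 (adjusted p = 0.0997). The spread in this fit is pooled over all 4 groups, so it includes that of Socs3 cKO mice. Without Socs3 cKO replicate 1 at 2 weeks these 3 genes were also called, at the same log2(FC) (adjusted p = 0.0289, 0.0351 and 0.00677). Over all genes tested 8809 of 13909 were called in that fit. Without WT replicate 3 at 10 weeks 2 members were called, Jak3 and Stat6. Calls over all genes tested then went from 7077 of 13937 to 5098 of 13848. With the length and G+C trend removed Jak3 was still lower at -0.90 (adjusted p = 0.00497), whereas Jak1 was higher at 0.38 (adjusted p = 0.0318) and Stat5a higher at 0.40 (adjusted p = 0.0337).

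In Socs3 cKO mice none of the 9 members passed the adjusted threshold of limma between the ages, where 10.1% of all genes did. All 9 values were positive, from 0.35 for Stat5b to 0.85 for Stat3, and 3 members (Jak1, Jak2 and Stat3) had an unadjusted p below 0.05. Jak1 and Jak2 were higher at 10 weeks in every mouse without overlap, which was so for 7.71% of all genes. Both age comparisons share their groups with the genotype comparisons and are not independent of them.

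Shares within a library do not depend on its scaling, but they carry its trend with gene length and G+C content. Jak1 made up 54.9, 55.1, 52.2 and 54.1% of the summed JAK FPKM in WT at 2 weeks and 72.8, 64.2, 65.7 and 68.9% in Socs3 cKO. The groups did not overlap, and the difference of 13.8 percentage points had p = 0.0286 in a 2-sided exact permutation test, the smallest p that 4 mice against 4 can give. The share of Tyk2 was 19.8% ± 1.56 in WT and 7.31% ± 3.85 in Socs3 cKO (SD, n = 4 each, exact permutation p = 0.0286), and that of Jak3 was 6.88% ± 0.399 and 2.04% ± 1.15 (SD, n = 4 each, exact permutation p = 0.0286). With the trend removed, an alternative chosen after seeing the data, the groups of these 3 shares still did not overlap. The Jak1 difference was then 11.1 points, that of Tyk2 went from -12.5 to -6.28 points and that of Jak3 from -4.83 to -1.75 points. The Jak2 difference turned from 3.51 to -3.06 points, without overlap in either case.

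At 10 weeks the Jak1 share was 65.7% ± 3.32 in WT (SD, n = 3) and 66.5% ± 1.94 in Socs3 cKO (SD, n = 4), with p = 0.686 in the exact permutation test. The Tyk2 share was 11% ± 0.836 in WT (SD, n = 3) and 8.14% ± 1.96 in Socs3 cKO (SD, n = 4), without overlap (exact permutation p = 0.0571), and with the trend removed the groups overlapped at 9.63% and 8.97%. The 4 shares are not independent of each other, since they add up to the whole.

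The Stat3 share of the summed STAT FPKM was 42.7% ± 1.13 in WT and 39.5% ± 2.00 in Socs3 cKO at 2 weeks (SD, n = 4 each, exact permutation p = 0.0571), with overlap. At 10 weeks it was 41.8, 38.9 and 40.6% in WT and 43.2, 47.5, 49.5 and 43.1% in Socs3 cKO. All cKO mice were above the WT mice, with p = 0.0571 in the exact permutation test, the smallest that 3 mice against 4 can give. With the trend removed the groups overlapped, and the difference went from 5.39 to 1.66 points (exact permutation p = 0.343). The Stat6 share was 29.5% ± 0.709 in WT and 36.6% ± 1.53 in Socs3 cKO at 2 weeks (SD, n = 4 each, exact permutation p = 0.0286). These are 4 comparisons set out for Stat3 and Jak1 plus the shares of the other members, and their p-values are not adjusted.

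**Figure D4:**
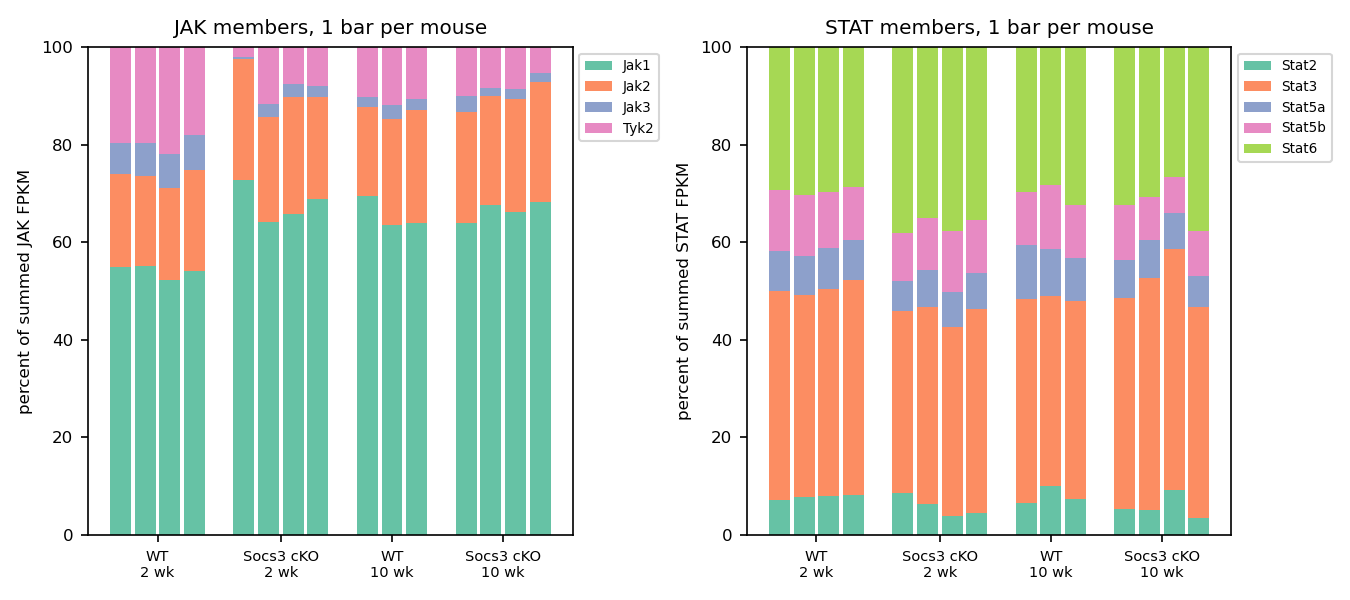
Percent of the summed FPKM of the 4 JAK genes (left) and of the 5 STAT genes (right) held by each gene, with 1 bar per mouse in the 4 groups and vertical axes from 0 to 100%. The Jak1 part is 52.2 to 55.1% in WT at 2 weeks and 63.6 to 72.8% in the mice of the other 3 groups, and the Stat3 part has its highest mean, 45.8%, in Socs3 cKO at 10 weeks.

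The other genes of the pathway were taken by their role. Of 30 receptor chains, 25 were tested at 2 weeks, where 6 rose and 4 fell (median log2(FC) 0.04), and 26 at 10 weeks, where 15 rose and 1 fell (median 0.96). With the length and G+C trend removed 10 rose and 3 fell at 2 weeks (median 0.37). Ifngr1, a chain of the IFN-gamma receptor, was at 35.1 FPKM ± 2.02 in WT and 81.3 FPKM ± 7.05 in Socs3 cKO at 2 weeks (SD, n = 4 each, log2(FC) 1.21, adjusted p = 0.00025). Osmr, the oncostatin M receptor chain, rose at 2 weeks (log2(FC) 0.94, adjusted p = 0.00121) and at 10 weeks (log2(FC) 1.49, adjusted p = 0.00107). Il4ra and Il2rb rose at 10 weeks, with log2(FC) values of 1.96 (adjusted p = 0.00115) and 2.53 (adjusted p = 0.000259).

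Of 16 inhibitors tested, 2 rose and 4 fell at 2 weeks (median -0.67), and 12 rose and none fell at 10 weeks (median 1.11). At 2 weeks the counts were 3 and 8 without Socs3 cKO replicate 1, and 3 and 2 with the trend removed (median -0.16). Cish, a SOCS family member induced by STAT5, was at 10.2 FPKM ± 0.661 in WT and 4.03 FPKM ± 1.74 in Socs3 cKO at 2 weeks (SD, n = 4 each, log2(FC) -1.45, adjusted p = 0.0128). At 10 weeks it was at 6.40 FPKM ± 2.33 in WT (SD, n = 3) and 24.7 FPKM ± 4.62 in Socs3 cKO (SD, n = 4, log2(FC) 1.99, adjusted p = 0.00102). Ptpn1, a tyrosine phosphatase that acts on JAKs, fell at 2 weeks (log2(FC) -1.89, adjusted p = 0.0164). Socs4 and Pias1 were the 2 inhibitors that rose at 2 weeks, at 1.5 and 0.78.

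Of 13 Stat3 target genes, 4 rose and 1 fell at 2 weeks (median 0.40), and 9 rose and none fell at 10 weeks (median 1.90). Lcn2, which encodes the iron-binding protein lipocalin 2, rose at 2 weeks from 1.84 FPKM ± 0.521 to 14.7 FPKM ± 1.62 (SD, n = 4 each, log2(FC) 2.96, adjusted p = 7.33e-05). Junb and Cebpd, transcription factor genes, rose at 10 weeks with log2(FC) values of 3.48 (adjusted p = 1.93e-05) and 2.85 (adjusted p = 3.4e-05), and Socs3 with 3.54 (adjusted p = 7.2e-05). With the length and G+C trend removed 8 of 12 Stat3 targets rose at 10 weeks and 5 of 12 at 2 weeks.

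Of 8 Stat5 targets, 1 rose and 3 fell at 2 weeks (1 and 1 with the trend removed, median 0.18), and 7 rose at 10 weeks, a count that was 4 after removal of the length and G+C trend and 4 under median-of-ratios scaling. Pim1, a kinase gene, rose at 10 weeks from 9.73 FPKM ± 5.58 (SD, n = 3) to 54.5 FPKM ± 9.72 (SD, n = 4, log2(FC) 2.68, adjusted p = 0.0016), and Ccnd1, which encodes cyclin D1, fell at 2 weeks (log2(FC) -1.21, adjusted p = 0.00585) and rose at 10 weeks (log2(FC) 1.14, adjusted p = 0.00693). Of the Stat6 targets 2 of 8 rose and 2 fell at 2 weeks, and 3 of 7 rose and 1 fell at 10 weeks, with the chemokine gene Ccl11 at a log2(FC) of 2.06 (adjusted p = 0.000565). Of the partners and targets of Stat2 2 of 10 rose and 1 fell at 2 weeks, and none of 9 passed at 10 weeks in limma, with 0 at an unadjusted p below 0.05 (median 0.67). The lists share Socs2, Socs3, Cish, Osmr, Il4ra and Pim1, the last a target in both the Stat3 and the Stat5 list. Their counts stand beside 21.8% of all genes higher and 26.1% lower at 2 weeks, and 28.7% higher and 8.96% lower at 10 weeks.

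Markers of other cells moved with these groups. All 6 macrophage markers rose at 10 weeks, with a summed FPKM of 266 to 438 in WT and 628 to 1080 in Socs3 cKO, and 4 of 6 rose at 2 weeks (211 to 244 against 318 to 684). Of 7 leukocyte markers 3 rose at 10 weeks, and of the 6 T cell markers tested none passed in limma, with 0 at an unadjusted p below 0.05. All 11 hair markers fell at 2 weeks, from a sum of 2010 to 2920 FPKM in WT to 7.31 to 53.2 FPKM in Socs3 cKO, and were at 4.62 to 6.29 FPKM in WT at 10 weeks. Skeletal muscle markers summed to 631 to 958 FPKM in WT and 1610 to 2940 FPKM in Socs3 cKO at 2 weeks, and the other way at 10 weeks, to 1030 to 1770 and 449 to 843 FPKM. Singly, 8 of the 9 muscle markers rose at 2 weeks, and at 10 weeks 1 rose and 5 fell. Fibroblast markers summed to 12700 to 14900 FPKM in WT and 5110 to 7090 FPKM in Socs3 cKO at 2 weeks, and to 3860 to 6810 and 6790 to 11800 FPKM at 10 weeks. Among these 6 markers 1 rose and 3 fell at 2 weeks, and 3 rose at 10 weeks. Adipocyte markers summed to 224 to 261 and 406 to 794 FPKM at 2 weeks and to 329 to 436 and 411 to 795 FPKM at 10 weeks. Endothelial markers overlapped at 2 weeks (56.7 to 66.9 and 51.7 to 64.3 FPKM) and not at 10 weeks (19.6 to 22.8 and 37.4 to 57.2 FPKM). Of 6 mast cell markers 4 rose at 2 weeks and 1 at 10 weeks, of 5 cartilage markers tested 1 rose and 1 fell and then 2 rose, and B cell and neutrophil markers summed to at most 4.33 FPKM. Keratinocyte markers overlapped in their sums, at 9830 to 10600 FPKM in WT and 6800 to 13200 FPKM in Socs3 cKO at 2 weeks, and none was at 0. Singly, 1 of 10 keratinocyte markers rose and 2 fell at 2 weeks, and 2 rose and 2 fell at 10 weeks. The part of these cells in the JAK and STAT results was not tested.

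Across the 15 libraries the members formed 2 sets by the likeness of their log2 levels. Jak1 and Jak2 had a Pearson's r of 0.96 with each other and of 0.17 to 0.62 with the other 7 members. Among those 7, r ran from 0.63 for Stat2 with Stat6 to 0.97 for Tyk2 with Stat5b. These values describe libraries of 4 groups that share depth and base composition, and they are not tests. The genes most like Jak1 were Esyt2 (r = 0.978), Erbb2ip (r = 0.975) and Nup153 (r = 0.975), and those most like Jak2 were Topors (r = 0.975), Il1r1 (r = 0.973) and Aff4 (r = 0.967). Stat3 was most like Tbc1d2 (r = 0.994), Slc35e1 (r = 0.986) and Brap (r = 0.985), and Tyk2 most like Zc3h18 (r = 0.995), Smarcc2 (r = 0.993) and Zfp740 (r = 0.991).

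The nearest genes by level were Adamtsl4 (r = 0.992), Glt25d1 (r = 0.987) and Fam65a (r = 0.985) for Jak3, and Trim62 (r = 0.953), 5730419I09Rik (r = 0.943) and Entpd7 (r = 0.938) for Stat2. They were Tiam1 (r = 0.990), Iffo2 (r = 0.987) and Prkcd (r = 0.986) for Stat5a, and Abca2 (r = 0.987), Tns1 (r = 0.987) and Rhot2 (r = 0.982) for Stat5b. For Stat6 they were Tbc1d2b (r = 0.983), Tmem189 (r = 0.980) and Bsdc1 (r = 0.978).

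In the promoter windows of RefSeq on GRCm38.p6, from 250 bases before to 50 after the start, the STAT dimer motif TTCNNNGAA, which reads the same on both strands, was in none of 11 windows of the members and in 8.30% of 32851 windows. The spacing TTCNNNNGAA, which Stat6 prefers, was in 1 member window, that of Stat2, and in 6.95% of all windows. These counts say only that the letters are or are not in these windows.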

How the data were processed

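Ear RNA of 15 mice was sequenced from one end, 50 bases a read. Alignment by the authors used TopHat2 2.1.0 and mm9, and they deposited 1 FPKM value per gene, and the submitters' notes also name Cufflinks. FPKM is normalized by the authors for gene length and mapped reads. Groups came from the sample labels. Read counts were not used here, so limma 3.58.1 (R 4.3.3, prior variance with trend, 2-sided, Benjamini-Hochberg adjustment over all genes tested) on log2(FPKM + 0.1) replaced the authors' edgeR test, for genes that reached 1 FPKM in 3 or more of the samples compared. Fold changes on this scale understate those of low genes. Genotype effects were fitted on the 2 groups compared, and the interaction and age effects on all 4. Shares were compared by exact permutation tests. G+C content and positions came from GENCODE transcripts of mm9, found for 92.1% of genes. Tested on simulated data at 2 weeks, the limma step recovered 43 of 100 genes changed 2-fold and 78 of 100 changed 4-fold among 13272 genes, with 4 false calls, and at 10 weeks 34 and 83 of 100 among 12939 genes, with 7 false calls. The simulated noise was independent between genes and equal in spread in both groups, with no library trend in gene length or G+C content. The false calls thus do not measure errors in the real libraries.

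The members and lists were chosen with earlier results of these data known. Named are all 9 members, Socs3, up to 4 genes per pathway list with the smallest adjusted p at each age, of which some are printed, and the 3 genes most correlated with each member. Deviations of same-numbered libraries from their group means had r from -0.057 to 0.057 at 2 weeks and -0.203 to 0.036 at 10 weeks. Between the ages r was 0.029 to 0.086 in WT and -0.11 to 0.241 in Socs3 cKO. The numbers were therefore not used to pair samples, but such values cannot exclude shared litters or days. The alternatives were other pseudocounts (1 and 0.01), filters, scalings and prior variance, the replicate block, removal of the length and G+C trend, and leaving out each library. Calculations outside limma used Python 3.11.15.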

Additional observations from a re-analysis of the deposited data

Results flagged for a closer look

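Of 54 checks of groups of 4 mice, 6 had a mouse far from the other 3 by Dixon's criterion, where chance gives about 1 in 20. In Socs3 cKO at 2 weeks these were Jak3 at 0.152 FPKM and Stat5b at 2.73 FPKM, both in replicate 1, which also stood apart in its relation to G+C content. In Socs3 cKO at 10 weeks they were Tyk2 at 3.65 FPKM, Stat5a at 4.74 FPKM and Stat6 at 28.2 FPKM, all in replicate 4. The last was a Stat5a share of 8.48% of the STAT sum in WT replicate 3 at 2 weeks.

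By the interaction of limma on the FPKM values as deposited, the genotype effect differed between the ages for all 9 members. Of all genes tested 34.6% had a positive call by the same rule. The log2 values were 0.83 for Jak1, 1.05 for Jak2, 2.75 for Jak3, 2.28 for Tyk2, 1.59 for Stat2, 1.97 for Stat3, 1.45 for Stat5a, 1.42 for Stat5b and 1.44 for Stat6, with adjusted p-values of 0.00434 to 0.0348. With the length and G+C trend removed only Jak2, Jak3 and Tyk2 were still called, and Jak1 and Stat5a were both at -0.19. How far composition of the tissue or of the libraries enters the values of the members was not tested beyond that removal.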

How the results depend on the processing

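The count of members called at 2 weeks (3) was 1 without a filter, 5 under quantile normalization, 5 under median-of-ratios scaling, 6 with all 4 groups in one fit and 1 to 7 when each mouse was left out. Over all genes tested the calls were 5885 of 21110 without a filter and 7316 of 13524 under quantile normalization. They were 6840 of 13476 under median-of-ratios scaling and 7483 of 13937 with all 4 groups in one fit, against 6479 of 13524 as deposited. With the length and G+C trend removed the log2(FC) of Stat5a turned to 0.16 and that of Stat6 to 0.31, with or without the replicate block. With Socs3 cKO replicate 1 left out as well, an alternative added after seeing the data, the values were 0.02 for Stat3, 0.20 for Stat5a, 0.04 for Stat5b and 0.40 for Stat6, the last with an adjusted p of 0.00137. The count at 10 weeks (4) was 2 with the trend removed and 4 to 7 when each mouse was left out. Stat2 turned to -0.10 with quantile normalization, -0.16 with the trend removed and -0.0047 without Socs3 cKO replicate 3 (up to 0.67 with another mouse left out), and with the trend removed Stat5a was at -0.07 and Stat5b at -0.05. The interaction count (9) was 5 under median-of-ratios scaling, 4 under quantile normalization, 3 with the trend removed, 2 when Socs3 cKO replicate 1 was also left out, and 6 to 9 when each mouse was left out. Jak1 turned to -0.19 with the trend removed and to -0.13 when that mouse was also left out, Stat5a to -0.19 and -0.24, and Stat5b to -0.06 in the latter. The count of the age effect in WT (6) was 3 with the trend removed, where Jak1 was at 0.38, Stat3 at 0.01 and Stat5a at 0.40, and 2 to 9 when each mouse was left out, with 2 without WT replicate 3 at 10 weeks. In Socs3 cKO the count (0) was 2 with the trend removed and 0 to 1 when each mouse was left out, with 1 without WT replicate 2 at 10 weeks and 1 without Socs3 cKO replicate 2 at 2 weeks. Over all genes tested 2688 of 13368 were called with the trend removed, against 1406 of 13937 as deposited. Without Socs3 cKO replicate 1 Jak3 was at -0.04 and Stat5b at -0.09 in that comparison, and with another mouse left out they reached 0.93 and 0.55. The Jak1 share at 2 weeks differed by 12.2 to 15 points when each mouse was left out, and at 10 weeks by -0.222 to 2.72, and by -1.92 with the trend removed. The Stat3 share differed by -3.97 to -2.45 points at 2 weeks and 4.17 to 6.28 at 10 weeks, and by -4.07 at 2 weeks with Stat5b left out of the sum (exact permutation p = 0.0286). Leaving out a mouse leaves fewer samples. In the age comparisons, which pool the spread over all 4 groups, a mouse of a group not compared changes the SE but not the log2(FC). Without Socs3 cKO replicate 1 at 2 weeks all 9 members were called for age in WT. The log2(FC) of Jak3 stayed at -2.14 there, while its SE went from 0.54 to 0.27. The cause of the other changes was not tested. Calls over all genes tested also moved when each mouse was left out, within 3885 to 8246 at 2 weeks and 2888 to 5771 at 10 weeks.

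Replicate numbers were not taken to pair the libraries. With the replicate block alone the count of calls stayed within 1.5 times its value in each comparison, and the Jak1 share at 2 weeks differed by 13.8 points with p = 0.125, the smallest that 4 pairs allow in an exact permutation test. With the replicate block and the trend removed together, the counts were 0 at 10 weeks, where Stat5b was at -0.03, 1 for the interaction, where Jak1 was at -0.22 and Stat5a at -0.18, 3 for age in WT, where Jak1 was at 0.40, Stat3 at 0.04 and Stat5a at 0.39, and 2 for age in Socs3 cKO.

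FPKM values carry no counting error, the depth is an estimate, and at about 11 reads the Jak3 value of Socs3 cKO replicate 1 at 2 weeks is the least certain. Batch and condition cannot be told apart.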
